A study of Mus musculus with 42 samples.

Results

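The response of the liver to rapamycin (Rapa) was compared between female and male mice, transcript by transcript, as the ratio of Rapa to control in females minus the same ratio in males. All 42 mice of the series entered this comparison, 20 of them female and 22 male. Liver RNA came from C57BL6/N mice of 25 months that had eaten either a diet with 14 ppm of Rapa or the control diet with eudragit, the capsule material without the drug, for 6 months from the age of 19 months, and each mouse was measured on 1 Illumina Mouse Ref8 microarray. There were 9 control and 11 Rapa females, and 10 control and 12 Rapa males. The labels name no transgene or deleted gene in any group, and the methods state that the mice were bought from the National Institute of Aging.

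Rapa inhibits the mechanistic target of rapamycin (mTOR) in its complex 1, a kinase that senses amino acids, insulin and energy and sets the rate of protein synthesis, ribosome production, lipid synthesis and autophagy. The liver is also among the organs that differ most between the sexes, because the pulsed release of growth hormone in males and its steadier release in females act through the transcription factor STAT5b on many genes of drug, steroid and lipid metabolism. A drug given to both sexes therefore acts on livers that start from different levels, and the difference of the 2 responses, called the interaction of drug and sex, measures whether a transcript answered the drug unequally.

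Levels are given as log2 of the quantile-normalized bead signal, so that a difference of 1 is a factor of 2. A transcript here is 1 probe of the array. The interaction was called at an adjusted p under 0.05 in the limma fit over all arrays and an absolute difference over 0.15, and a transcript is said to have risen or fallen in a sex where the Rapa to control ratio of that sex passed the same thresholds. Of 25697 probes, 12719 were detected on at least 9 arrays and were tested.

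Before the results, some properties of the arrays differed between the groups. The 5th percentile of the raw signal, a measure of background, lay between 76.5 and 89.7 in control females, 78.4 and 107.7 in Rapa females, 107.68 and 128.9 in control males and 115.8 and 141.0 in Rapa males, and between 9519 and 12585 probes were detected per array. The background of Rapa females 1 to 4 lay between 78.4 and 80.3. That of Rapa females 5 to 11 lay between 102.4 and 107.7, above every control female. On the third principal component of the probes detected on no array, control females 6 to 9 scored between -0.17 and -0.16 and the other control females between -0.04 and 0.04, and Rapa males 10 to 12 scored between -0.52 and -0.42 and the other Rapa males between -0.05 and 0.09. The main counts were therefore also computed without the 4 females and without the 3 males. The labels matched the sex-linked genes: 1 probe of the Y-linked gene Eif2s3y was detected on all 22 male arrays and on no female array. Of 16 hepatocyte markers, 11 were detected on all 42 arrays, the probe of Alb (albumin) was detected on 27, and Tat was detected on none. Because the tissue was measured whole, fewer cells of a type and less RNA per cell cannot be told apart.

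Females and males answered Rapa unequally at 2593 transcripts, which is 20.4% of those tested. The effect was more positive in females for 1511 transcripts (11.9%) and more positive in males for 1082 (8.51%). In the typical case of either direction the 2 ratios had opposite signs: the median ratio among the transcripts more positive in females was 0.24 in females and -0.11 in males, and among those more positive in males it was -0.36 in females and 0.13 in males. The female ratio was the larger in size for 1257 of the 1511 and 1001 of the 1082. Differences over 1 in size were found for 7 transcripts more positive in females and 141 more positive in males.

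Each sex taken alone contributed unequally to these calls. Rapa changed 2747 transcripts in females (21.6% of those tested) and 83 in males (0.653%), and the interaction passed for 73.2% of the former and 69 of the latter. The rest of the transcripts that changed in females were therefore not shown to respond differently in males, although few of them passed there. Conversely, 395 transcripts more positive in females and 147 more positive in males passed the interaction although neither sex passed alone, and in all of these the 2 ratios had opposite signs. Opposite signs follow largely from this selection. For 2 ratios of the same sign, the difference is smaller than the larger ratio and has a larger standard error. Both sexes passed with opposite signs for 29 transcripts.

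**Figure D1:**
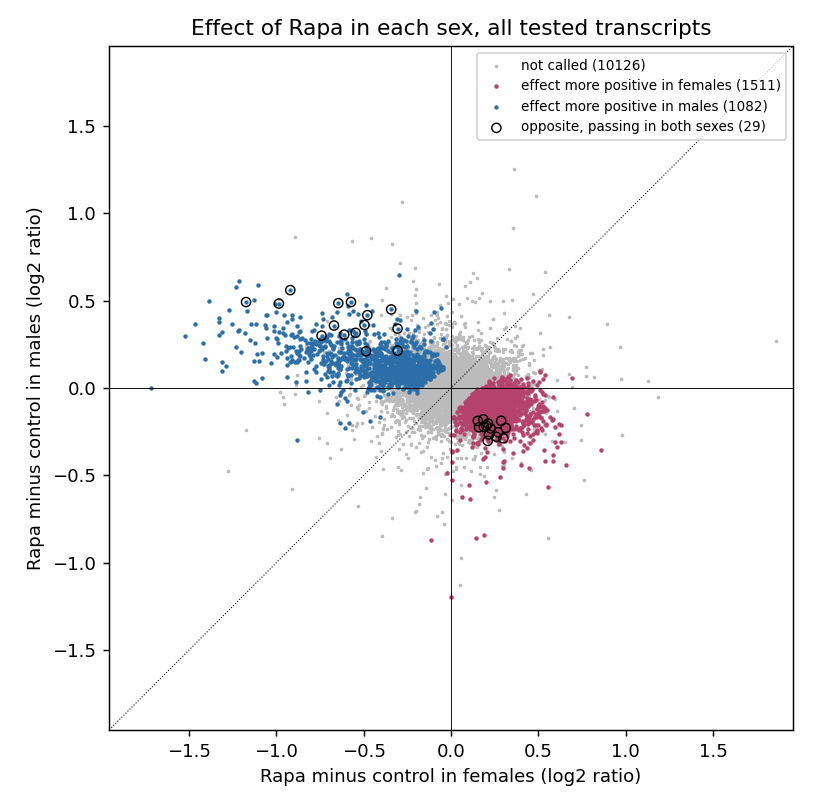
The log2 ratio of Rapa to control in females (x axis) and males (y axis) for each of the 12719 tested transcripts. Coloured points are the 1511 and 1082 transcripts whose ratios differed between the sexes, circles mark the 29 with opposite changes that passed in both sexes, and the points spread further along the female axis than along the male axis.

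The counts depended on which females were compared. Without control females 6 to 9 the interaction passed for 1136 transcripts (8.93%), 487 more positive in females and 649 more positive in males, and 1102 of them were among the 2593. When 3 covariates were added that summarize the probes detected on no array (their leading principal components), 558 passed. The first component lay between -0.22 and -0.06 in males and between 0.03 and 0.26 in females. The second lay between -0.36 and -0.07 in control males and between -0.13 and 0.27 in Rapa males. This fit can therefore also take out differences between the groups, and no transcript passed in males alone in it. With control females 1 to 5 and Rapa females 1 to 4 alone, whose backgrounds were alike, 542 passed. Centring each array on its median in place of quantile normalization moved the median interaction of all transcripts to 0.19 and gave 4003 calls more positive in females against 672 more positive in males. Over 13 alternatives of the fit and the normalization, 220 of the calls more positive in males and 38 of those more positive in females passed in every fit. Without Rapa males 10 to 12 the interaction passed for 2450 transcripts, 1381 more positive in females and 1069 more positive in males. The results below are therefore given with the fit without the 4 females where it ended a call, for some members of the gene lists only as the count of their list.

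The transcripts with the lowest adjusted p among those more positive in males were all lower in Rapa females than in control females, and the female groups did not overlap. Mrpl13, a protein of the large subunit of the mitochondrial ribosome, ranged from 9.03 to 10.08 in control females (median 9.27) and from 7.96 to 8.50 in Rapa females (median 8.18). In males it ranged from 8.22 to 8.70 in controls (median 8.54) and from 8.46 to 9.01 with Rapa (median 8.87). Rapa females were thus the lowest of the 4 groups and control females the highest, with both male groups between them. The ratio was -1.22 in females and 0.33 in males, a difference of -1.55 ± 0.13 (SE, adjusted p = 2.8e-10) that stood at -1.33 without control females 6 to 9.

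The same order of the 4 medians was found for Ndufaf5 and Rer1. Ndufaf5, an assembly factor of respiratory complex I, lay between 7.87 and 8.59 in control females, 7.08 and 7.53 in Rapa females, 7.46 and 7.76 in control males and 7.63 and 7.98 in Rapa males. It was detected on all 9 control female arrays and on 5 of 11 Rapa female arrays, and its difference was -0.99 ± 0.09 (adjusted p = 1.1e-09). Rer1, which returns membrane proteins from the Golgi to the endoplasmic reticulum (ER), lay between 9.47 and 10.50 in control females, 8.16 and 9.19 in Rapa females, 8.92 and 9.57 in control males and 9.44 and 10.01 in Rapa males. Rer1 fell in females and rose in males, and the difference was -1.67 ± 0.16 (adjusted p = 1.1e-09). Selenop, the secreted protein that carries selenium from the liver to other organs, lay between 13.77 and 14.46 in control females and between 12.71 and 13.56 in Rapa females, against 12.53 to 13.41 in control males and 13.30 to 13.69 in Rapa males. Control females and Rapa females did not overlap, whereas the male groups overlapped between 13.30 and 13.41. The difference was -1.47 ± 0.14 (adjusted p = 2.3e-09).

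Other probes of the leading set behaved alike. The tight junction scaffold Tjp1 had a difference of -0.92 ± 0.09, the DNase I-like gene Dnase1l1 one of -0.70 ± 0.07, the ubiquitin-binding zinc finger gene Zfand6 one of -1.72 ± 0.17 and the predicted gene Gm12657 one of -1.73 ± 0.17. Nit2, an amidase of glutamine metabolism, had a difference of -1.82 ± 0.19 (adjusted p = 4.0e-09), with levels between 9.44 and 10.58 in control females and between 7.78 and 9.01 in Rapa females. All 11 Rapa females lay below the control female mean for each of these genes, and all of these calls held without control females 6 to 9.

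Other transcripts with large differences in this direction varied in function. Aadac, a hydrolase of the ER, differed by -1.63 ± 0.28 (adjusted p = 3.7e-05), Tm4sf4, a membrane protein of 4 spans, by -1.70 ± 0.23 and the G protein subunit Gng5 by -1.81 ± 0.22. The second probe of Tm4sf4 was not called (-0.36, adjusted p = 0.26). Cyp2c29, a cytochrome P450 that oxidizes drugs and arachidonic acid, fell in females by 1.42 on the log2 scale and had a ratio of 0.26 in males (difference -1.68 ± 0.36, adjusted p = 7.8e-04). Mup20, a major urinary protein secreted mainly by males, ranged from 10.32 to 13.12 in control females and from 7.45 to 12.09 in Rapa females, against 11.64 to 13.51 and 10.68 to 14.30 in control and Rapa males. Its difference of -1.72 ± 0.59 (adjusted p = 0.033) fell short in the fit without control females 6 to 9 (-1.80, adjusted p = 0.076), and also without control female 6 or control female 8 alone. Cyp2c29 and Mup20 belong to families of similar sequence, so their probes may also bind relatives.

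**Figure D2:**
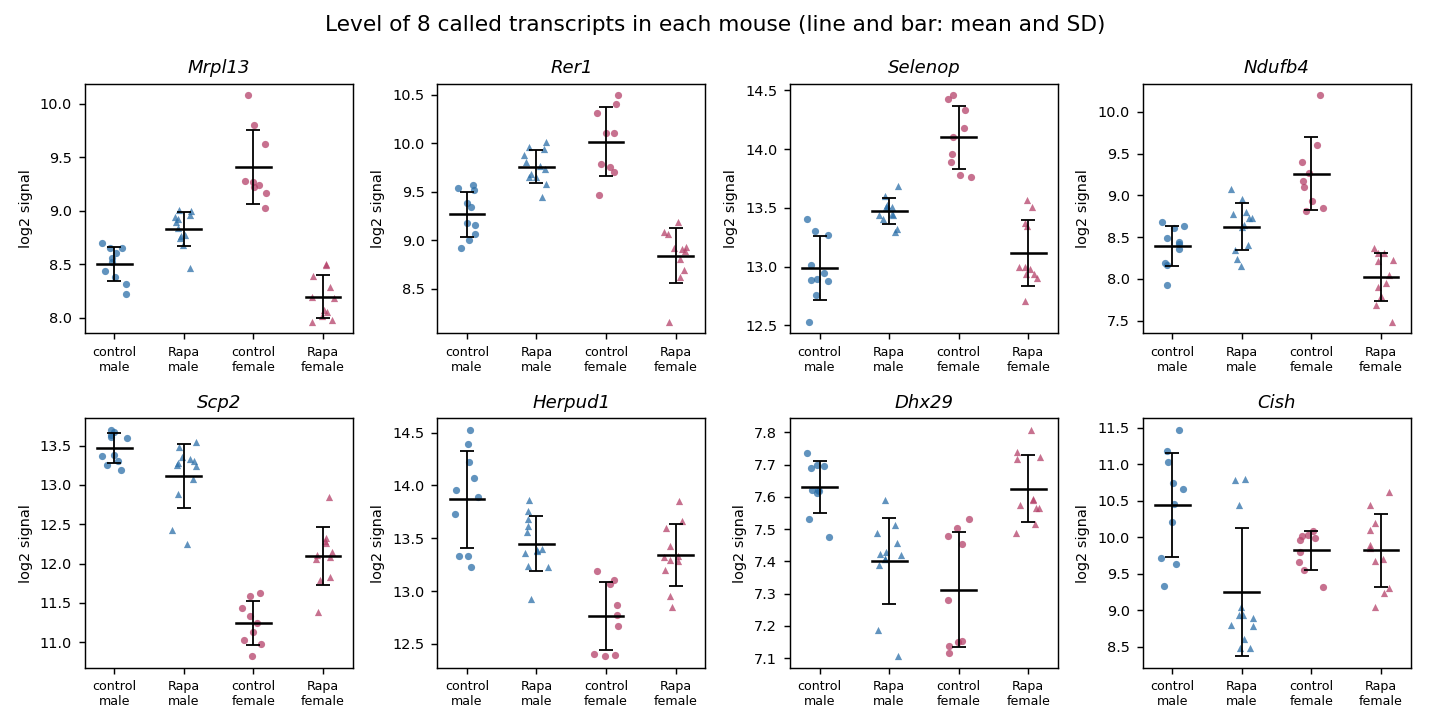
The log2 signal of 8 called transcripts in each mouse (points), with the mean and SD of each group (line and bar). The 4 transcripts in the top row have no overlap between control and Rapa females, Scp2 and Herpud1 were lower in control females than in control males and moved between them with Rapa, and for Cish the male groups differ while the female groups have almost the same mean.

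A second probe of the same gene was mostly not called in this direction. Of the 1082 calls more positive in males, 436 had another tested probe of their gene, and the brightest other probe was called in the same direction for 60 (13.8%) and in the opposite direction for 42, and it had the same sign for 233. The median difference was -0.48 at the called probes and -0.02 at the others. Of the 1511 calls more positive in females, 49.8% had another tested probe, which was called in the same direction for 240 (31.9%) and in the opposite direction for 49, with medians of 0.35 and 0.18. In the fit without control females 6 to 9 the shares were 27 of 265 (10.2%) and 51 of 261 (19.5%). For differences over 1 in size, the other probe was called alike for 6 of 47 called probes more positive in males and for 3 of 5 more positive in females. These counts are of called probes, so a gene called at more than 1 probe enters more than once.

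Named genes show the size of this disagreement. The other probe of Mrpl13 differed by -0.18 ± 0.09 (adjusted p = 0.16), that of Ndufaf5 by -0.03, that of Nit2 by -0.14, that of Selenop by -0.44, and those of Rer1 and Zfand6 by 0.18 and 0.19. Serpinc1, which encodes antithrombin, was called at both of its probes (-1.63 and -0.47). Among the genes more positive in females, both probes of Herpud1 (1.00 and 0.89) and 4 of the 5 probes of Il1rap were called. The files and the labels do not state where in the transcripts the probes lie, so that probes for different transcript forms and probes of unequal performance cannot be told apart. Within groups the 8 leading probes more positive in males also varied together from mouse to mouse, with a median correlation of 0.52 over their 28 pairs across the 42 mice, after subtraction of the group means, against 0.35 for the 8 leading probes of the other direction and -0.002 for every 40th tested transcript. The pairs of every 40th transcript ran from -0.87 to 0.87. Those transcripts were not chosen for 1 direction of the difference as each set of 8 was, so their median near 0 is not a like comparison. These are descriptions of probes measured on the same arrays.

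**Figure D3:**
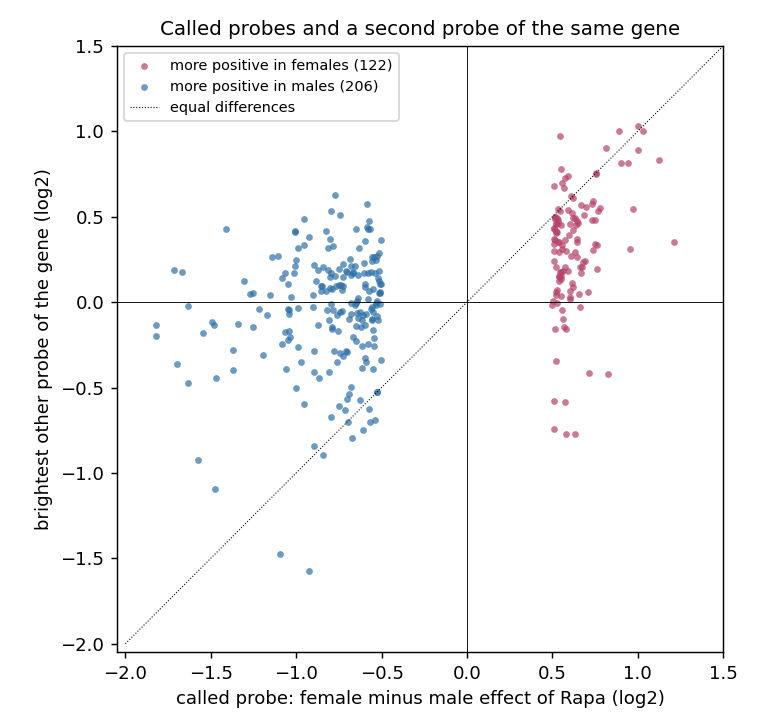
The interaction (female minus male effect of Rapa, log2) at called probes with an absolute difference over 0.5 (x axis) and at the brightest other tested probe of the same gene (y axis). The 206 probes more positive in males lie around 0 on the y axis (median -0.02) and the 122 more positive in females lie mostly above it (median 0.35).

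The largest difference among the transcripts more positive in females was that of Scp2, which encodes sterol carrier protein 2 and a peroxisomal thiolase of bile acid synthesis. Scp2 ranged from 10.82 to 11.63 in control females and from 11.38 to 12.84 in Rapa females, and from 13.20 to 13.70 in control males and 12.25 to 13.55 in Rapa males. All 4 groups were ordered in the same way as the sexes, with every male above every control female, and Rapa brought the sexes closer. The ratio was 0.86 in females and -0.35 in males (difference 1.21 ± 0.20, adjusted p = 1.8e-05, and 1.14 without control females 6 to 9). The other probes of Scp2 differed by 0.35 (adjusted p = 0.081) and 0.47 (adjusted p = 0.015).

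Herpud1, an ER membrane protein that takes part in the degradation of misfolded proteins, followed the same pattern. At its probe with the larger difference it ranged from 12.38 to 13.19 in control females, 12.85 to 13.86 in Rapa females, 13.23 to 14.53 in control males and 12.93 to 13.86 in Rapa males. The difference was 1.00 ± 0.20 (adjusted p = 3.8e-04, 0.96 without the 4 females). Atp2a2, the calcium pump of the ER, differed by 0.95 ± 0.20, Pltp, a phospholipid transfer protein of plasma, by 0.97 ± 0.24, and Il1rap, a coreceptor of interleukin 1, by 0.94 ± 0.25. The first 2 of these passed without control females 6 to 9, and so did this probe of Il1rap (0.85, adjusted p = 0.0497). The second probe of Pltp was called (0.54, adjusted p = 0.033) and that of Atp2a2 was not (0.31, adjusted p = 0.20).

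Cish was called with a change in males and a female ratio near 0. It encodes an inhibitor of cytokine signalling that STAT5 induces when growth hormone binds its receptor. Cish ranged from 9.33 to 11.47 in control males (median 10.56) and from 8.48 to 10.80 in Rapa males (median 8.91), but from 9.31 to 10.09 in control females (median 9.96) and from 9.04 to 10.62 in Rapa females (median 9.86). It fell in males by 1.20 on the log2 scale, and 9 of 12 Rapa males lay below the control mean, whereas the female ratio was 0.00 ± 0.28. The difference was 1.20 ± 0.39 (adjusted p = 0.025), but leaving out control females 6 to 9 ended the call (adjusted p = 0.11), as did runs of adjoining animal numbers as a random effect (adjusted p = 0.051). Rapa males 9 to 11, whose animal numbers adjoin, lay between 10.45 and 10.80 and the other 9 Rapa males between 8.48 and 9.05. Of the 15 measured genes of growth hormone and STAT5 signaling, Cish alone was called.

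The lowest adjusted p-values in the female direction belonged to smaller differences. Dhx29, a helicase that helps initiation on structured mRNAs, ranged from 7.12 to 7.53 in control females and from 7.49 to 7.81 in Rapa females, and from 7.48 to 7.74 and 7.11 to 7.59 in control and Rapa males. Dhx29 rose in females and fell in males (difference 0.54 ± 0.08, adjusted p = 3.7e-06). It was detected on 4 of 9 control female arrays and 11 of 11 Rapa female arrays, so its female control level is close to background. The nucleolar protein gene Knop1 (0.47 ± 0.07), the splicing factor gene Cwc22 (0.43 ± 0.07), the chromatin remodeller gene Chd1 (0.42 ± 0.07), the RNA polymerase II associated factor gene Scaf1 (0.53 ± 0.08), the ubiquitin ligase gene Rnf25 (0.48 ± 0.08), the microtubule-associated gene Mtus1 (0.76 ± 0.12) and the transcriptional corepressor gene Nab1 (0.51 ± 0.08) had differences of the same kind, all of which passed without control females 6 to 9. Knop1 and Chd1 were detected on 2 and 1 of the control female arrays. The other 3 probes of Nab1 were called too, with differences of 0.43, 0.46 and -0.57. By contrast, the second probes of Knop1 (0.22, adjusted p = 0.070), Chd1 (0.13, adjusted p = 0.19) and Mtus1 (0.33, adjusted p = 0.073) were not called. Nor were the other probes of Rnf25 (0.15 and 0.004).

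Of the 29 transcripts with opposite changes that passed in both sexes, 15 fell in females and rose in males and 14 did the reverse. This count rested on few mice: it was 19, 10, 11 and 15 without control male 1, 2, 4 or 5, 18 and 14 without Rapa male 7 or 12, 13 without Rapa males 10 to 12 and 48 without control females 6 to 9. It moved further with the way the data were processed: it was 152 with array weights and 594 with median centring, 1 with runs of adjoining animal numbers as a random effect, 1 with background as a covariate and 0 with the 3 components of the probes detected on no array. The transcripts described here are therefore those of 1 fit. Beside Rer1, Selenop, Tjp1 and Dnase1l1, the first group held Sqor, the mitochondrial enzyme that oxidizes sulfide (-0.65 in females and 0.49 in males), Kpnb1, the importin that carries proteins into the nucleus (-0.67 and 0.36), Dazap1, an RNA-binding regulator of splicing (-0.48 and 0.42), Tomm70a, a receptor for import into mitochondria (-0.55 and 0.32), Cryzl1, a quinone oxidoreductase-like gene (-0.74 and 0.30), and the histone H3 genes H3c13 and H3c14. For Dazap1 the male groups did not overlap, with 8.27 to 8.60 in controls and 8.61 to 9.20 with Rapa. The second probe of H3c14 differed by 0.17 and that of Cryzl1 by -0.05, and probes for histone genes may bind more than 1 of these near-identical copies.

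Among the 14 of the reverse direction, Atg16l1, which acts in the lipidation step of autophagy, rose in females by 0.30 and fell in males by 0.29 on the log2 scale. Its levels were 9.28 to 9.72 in control females, 9.50 to 10.11 in Rapa females, 9.70 to 10.22 in control males and 9.52 to 9.81 in Rapa males, so that Rapa females and control males overlapped. Celf1, an RNA-binding regulator of splicing, was called at all of its 3 probes (0.34, 0.46 and 0.52), and passed in both sexes at the last 2. Usp9x, a deubiquitinase of the X chromosome, was listed in this group as well (0.36 ± 0.06), but it was detected on none of the 9 control female arrays, and its level there is a background value. The other probe of Usp9x was not called (-0.08, adjusted p = 0.31).

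Transcripts that passed the interaction with neither sex passing alone had small differences. The 6 with the lowest adjusted p were Zfp598 (0.30), Tdrkh (0.25), Terf2 (0.33), Srprb (0.44), Ppp6r1 (0.27) and Cul4a (0.30). Of these Ppp6r1 alone, a regulatory subunit of protein phosphatase 6, was detected on all control female arrays. Cul4a and Tdrkh were detected on none of them, and Zfp598, Terf2 and Srprb on 1, 2 and 3. These 5 differences therefore compare a background level in control females with levels near it. The second probe of Terf2, which encodes a telomere-binding protein, was called in the opposite direction (-0.28, adjusted p = 0.017). Another probe of Cul4a (0.49, adjusted p = 5.5e-05) and that of Srprb (0.37, adjusted p = 0.027) were called in the same direction. A further probe of Cul4a (0.18, adjusted p = 0.30) was not called.

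The pathways were described with gene lists that used the brightest probe of each gene, chosen with results of these data known. Over the 8903 genes with a symbol, 10.3% were called with the effect more positive in females and 8.4% with the effect more positive in males, and the median difference was 0.02. Without control females 6 to 9 these shares were 3.15% and 4.82%. The counts below are to be read against these shares.

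Among genes of the ER, 11 of 35 measured chaperones, unfolded protein response genes and translocation factors were more positive in females and 4 more positive in males, with a median difference of 0.25. The median ratio of the list was 0.11 in females and -0.14 in males. Calr, the calcium-binding chaperone calreticulin (0.75 ± 0.22), and Syvn1, the ubiquitin ligase of ER-associated degradation (0.68 ± 0.22), fell in males by 0.63 and 0.62 on the log2 scale. The protein disulfide isomerase Pdia4 (0.84 ± 0.19), the oxidase Ero1b (0.91 ± 0.23) and Faf2, which helps to extract misfolded proteins (0.84 ± 0.19), rose in females. Creld2, a gene induced by ER stress, had differences of 1.03 and 1.00 at its 2 probes at an adjusted p of 0.047 and 0.046, and both calls were lost without any 1 of 24 or more of the mice.

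In contrast, Hspa5, the main chaperone of the ER lumen known as BiP, fell in females from 8.95 to 10.01 in controls to between 7.61 and 9.03 with Rapa, against 8.65 to 9.46 and 8.24 to 10.13 in males. Its difference was -1.17 ± 0.26 (adjusted p = 0.0011, -0.999 without the 4 females). The signal peptidase subunits Spcs2 (-0.89 ± 0.15) and Sec11c (-0.80 ± 0.22) moved in the same direction as Hspa5, and Spcs2 was detected on 1 of 11 Rapa female arrays. In the fit without control females 6 to 9 the list held 4 calls more positive in females and 3 more positive in males. Not all of Calr, Syvn1, Pdia4, Ero1b, Faf2 and Creld2 therefore passed in that fit.

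Many ER genes carry in their promoters an ER stress element, the letters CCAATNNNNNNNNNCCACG, which the factors ATF6 and NF-Y bind. It is shown for those genes of the list that were called and held it, because the same letters stood before genes that moved in opposite directions. In the 250 bases before the start sites of RefSeq (GRCm38.p6, mouse), on either strand, the element was found at 8 of 30 ER genes that were measured and matched by symbol (26.7%) and at 35 of 27025 genes in all (0.13%). Of the 8, 4 were called with the effect more positive in females, Hspa5 with the effect more positive in males, and 3 were not called. Each sequence is the gene's own strand, 5′ to 3′, with the CCAAT and CCACG boxes or their complements in capitals, and a match is a description of letters only.
Hspa5, chr2:34772005-34772063, plus strand, difference -1.17: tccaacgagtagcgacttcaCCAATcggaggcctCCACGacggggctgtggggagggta
Calr, chr8:84847055-84847113, minus strand, difference 0.75: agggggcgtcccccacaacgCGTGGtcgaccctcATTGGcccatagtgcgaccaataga
Ero1b, chr13:12565662-12565720, plus strand, difference 0.91: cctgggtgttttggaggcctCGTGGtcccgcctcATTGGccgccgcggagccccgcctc
Creld2, chr15:88819500-88819558, plus strand, difference 1.00: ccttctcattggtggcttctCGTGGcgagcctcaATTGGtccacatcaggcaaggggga
Syvn1, chr19:6046512-6046570, plus strand, difference 0.68: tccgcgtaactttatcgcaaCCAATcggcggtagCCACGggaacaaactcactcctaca

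Protein turnover in the cytosol followed the same direction in part. Of 46 measured ubiquitin-conjugating enzymes and USP deubiquitinases, 13 were more positive in females and 6 more positive in males (7 and 3 without control females 6 to 9). Usp7, which stabilizes p53 and its regulator Mdm2 (0.49 ± 0.09, adjusted p = 1.0e-04), Usp30 of the outer mitochondrial membrane (0.32 ± 0.06) and Usp5 (0.42 ± 0.09) were among the former, and Usp25 (-0.68 ± 0.09, adjusted p = 5.7e-07) led the latter. Usp30 was detected on 2 of 9 control female arrays. Of 41 proteasome genes 2 were more positive in females and 3 more positive in males, among them the base ATPases Psmc3 (0.30) and Psmc6 (-0.68), which moved in opposite directions. The call of Psmc3 was lost without the 4 females. Of 30 cytosolic chaperones 3 were more positive in females and 8 more positive in males (0 and 8 without the 4 females), while the median of the list was 0.02 and 16 of the 30 lay above 0. The 8 included Hsp90aa1, the inducible HSP90 (-1.03 ± 0.14, adjusted p = 1.2e-06), its cochaperone Ptges3 (-0.64 ± 0.11), the folding ring subunit Cct5 (-1.08 ± 0.14) and Dnaja2 (-0.47 ± 0.09, with -0.38 at its second probe, also called). In Rapa females Hsp90aa1 lay between 7.00 and 7.67 and Cct5 between 7.11 and 7.72. Ndufaf5, which was not detected on all of these arrays, lay there between 7.08 and 7.53, so both levels may be close to background. Dnajb1, which works with heat shock protein 70, fell in males by 0.87 on the log2 scale and had a difference of 0.75.

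Genes of the respiratory chain were called mainly with the effect more positive in males. Of 38 measured genes of complex I, 6 were more positive in males and 1 more positive in females, and of 43 genes of complexes II to V, 11 were more positive in males and none more positive in females. The medians over all measured members were -0.05 in both lists, and -0.12 and -0.15 without control females 6 to 9. When arrays were centred on their medians, the list medians were 0.13 and 0.15 above that of all tested transcripts. The medians of these lists therefore have no settled direction. Ndufb4, a subunit of the membrane arm of complex I, lay between 8.82 and 10.20 in control females, 7.49 and 8.37 in Rapa females, 7.92 and 8.68 in control males and 8.16 and 9.07 in Rapa males, with a difference of -1.47 ± 0.19 (adjusted p = 2.6e-07). Ndufb9 (-1.43), Ndufb5 (-1.27) and Ndufb2 (-1.03), also of the membrane arm, had similar differences. In the other complexes the leading genes were the ATP synthase subunits Atp5e (-1.41 ± 0.16, adjusted p = 1.7e-08) and Atp5a1 (-1.44 ± 0.21), the succinate dehydrogenase subunit Sdhd (-1.40), the cytochrome oxidase subunit Cox7b (-1.31) and Uqcrb of complex III (-1.01). In the fit without control females 6 to 9 these lists had 6 and 10 calls in the same direction.

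Mitochondrial ribosomes and import had called members too. Of 68 mitochondrial ribosomal proteins 9 were more positive in males, led by Mrpl20 (-1.08 ± 0.14) and Mrpl39 (-0.80 ± 0.13), and 2 more positive in females. Mrpl13 is counted here by its brighter probe, which was not called. Of 24 import factors and chaperones 4 were more positive in males, with Pmpcb, a subunit of the peptidase that removes targeting sequences (-1.34 ± 0.17, adjusted p = 1.3e-07), Tomm70a (-0.86) and Hspe1 (-0.71) among them, and Hspa9 alone was more positive in females (0.29). The call of Hspa9 was lost without control females 6 to 9 and without any 1 of 5 mice, namely control male 10, control females 5, 6 and 9 and Rapa female 7.

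Among genes of translation, the ribosomal proteins and the factors differed in direction. Of 54 cytosolic ribosomal proteins 10 were more positive in males and none in females, with a median of -0.18 over all of them, and 11 of the 54 had a difference above 0. Rps3a1 lay between 10.83 and 12.53 in control females and between 9.96 and 10.82 in Rapa females, with a difference of -1.38 ± 0.19 (adjusted p = 1.5e-06). Rps9 differed by -1.06 at 1 probe and by -0.18 (adjusted p = 0.60) at the other, and Rpl35a by -0.83. Ribosomal protein genes have many processed pseudogenes that their probes could bind. Leaving out control females 6 to 9 brought the median of the list to -0.03, with 5 calls. With median centring the list's median was at that of all tested transcripts (0.0025 above it), and with the 3 components of the probes detected on no array 1 member was called.

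Of 39 initiation and elongation factors 6 were more positive in females and 4 in males. Eif3b, a scaffold subunit of initiation factor 3, lay between 8.28 and 8.75 in control females and between 8.90 and 9.52 in Rapa females, against 8.61 to 9.10 and 8.34 to 9.41 in control and Rapa males (0.67 ± 0.12, adjusted p = 7.0e-05, and 0.21 at its second probe, also called). The female groups did not overlap for Eif3b. Other subunits of the same factor, Eif3k (-1.19 ± 0.19) and Eif3h (-0.67 ± 0.11), had the opposite direction. Eif2b5, of the exchange factor that recycles initiation factor 2, was called at all 3 of its probes (0.40, 0.31 and 0.36). Of 29 aminoacyl-tRNA synthetases 6 were more positive in females, led by Eprs (0.67 ± 0.11, adjusted p = 1.6e-05, with 0.17 at its second probe, not called), and Tars alone was more positive in males (-0.79 and -0.67 at 2 probes, both called). The call of Tars at its brighter probe was lost without the 4 females (-0.42, adjusted p = 0.17).

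For the target of the drug and its neighbours, 2 of 26 measured genes of the mTOR complexes and their upstream regulators were called. Mtor itself was more positive in females (0.43 ± 0.08 in females, -0.06 in males, difference 0.49 ± 0.11, adjusted p = 0.0015). Its levels were 7.77 to 8.38 in control females, 8.37 to 9.09 in Rapa females, 8.35 to 8.74 in control males and 8.15 to 8.85 in Rapa males, so the control females were the low group. Lamtor2, of the complex that holds mTOR complex 1 at the lysosome, had a difference of -0.80 ± 0.13 (adjusted p = 1.2e-05). The call of Lamtor2 held without control females 6 to 9 and that of Mtor did not (0.34, adjusted p = 0.061). Of 42 genes of autophagy and the lysosome 5 were called in each direction, to be read beside the 10.3% and 8.4% of all genes. Without control females 6 to 9, 1 was called more positive in females and 3 more positive in males. Those more positive in females included Atg16l1 (0.59 ± 0.10), Atg13 (0.48 ± 0.11) and the cargo-binding Sqstm1 (0.36). Those more positive in males were Map1lc3b (-0.72), Ctss (-1.49 ± 0.31), Npc2 (-1.13 ± 0.17), Ctsb (-0.51) and Ctsd (-0.36). Cathepsin S (Ctss) is also abundant in macrophages. The call of Atg13 was lost without the 4 females (0.32, adjusted p = 0.061).

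Genes of the nucleus were called in both directions. Of 52 splicing factors 11 were more positive in females and 5 in males (3 and 3 without control females 6 to 9). Srsf4 (0.42 ± 0.10) and Luc7l2 (0.57 ± 0.10) belonged to the former, but the second probe of Luc7l2 was called with a difference of -0.59, and the 2 probes of Hnrnpa2b1 were called at 0.33 and -0.96. Hnrnpu, with -0.35, was detected on no Rapa female array. Of 18 importins, exportins and RAN genes 4 were more positive in males, with Kpna3 (-1.16 ± 0.14, adjusted p = 9.9e-08), Kpnb1 (-1.03 ± 0.13) and Ranbp2 (-0.38) leading, and 2 more positive in females, among them Cse1l, which returns importin alpha to the cytosol (0.38 ± 0.09). Of 19 histone genes 3 were called, all more positive in males, H3c14 (-1.06), H3c13 (-0.86) and H3f3b (-0.51), and H3f3b passed in males alone, where it rose by 0.46 on the log2 scale. The calls of Srsf4 and H3f3b were lost without the 4 females (adjusted p = 0.051 and 0.053).

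**Figure D4:**
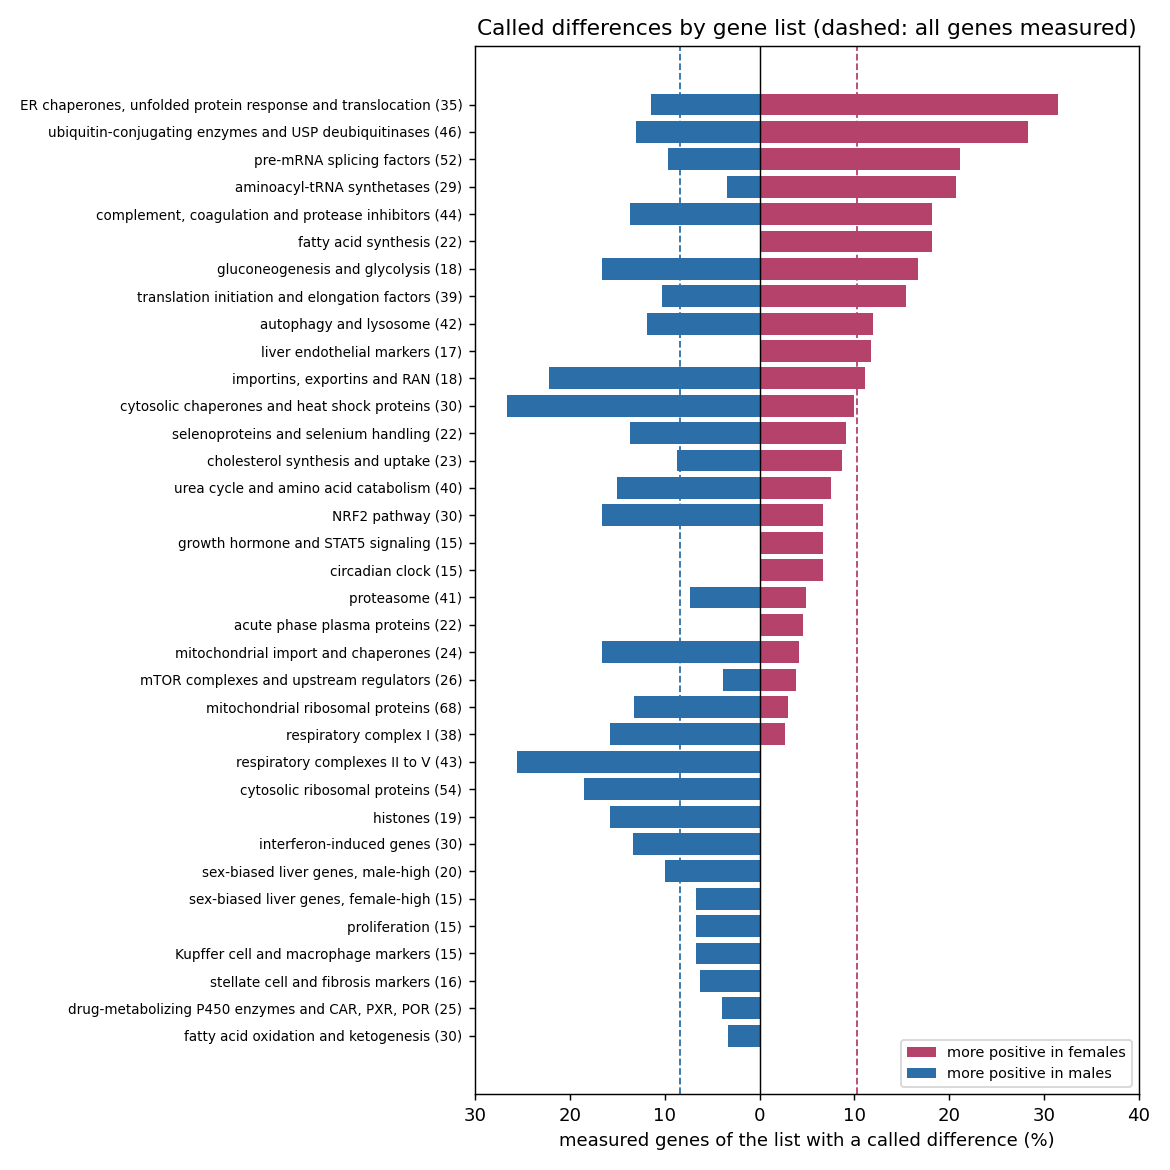
The share of measured genes in each list of at least 15 genes (number in brackets) whose interaction was called, more positive in females (right) or in males (left), by the brightest probe of each gene. The dashed lines mark the shares over all 8903 genes, 10.3% and 8.4%, and the ER list has the longest bar to the right and the cytosolic chaperones and complexes II to V the longest bars to the left.

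Lipid genes had medians above 0 but gave few calls. The median difference was 0.24 over 22 genes of fatty acid synthesis, 0.25 over 23 genes of cholesterol synthesis and uptake and 0.15 over 30 genes of fatty acid oxidation and ketogenesis, while the numbers called were 4, 4 and 1. Without control females 6 to 9 these medians were 0.08, 0.16 and 0.03. In fatty acid synthesis the calls were Srebf1, the transcription factor of the pathway (0.94 ± 0.34), the acyltransferases Agpat2 (0.54 ± 0.16) and Gpam (0.55 ± 0.20), and Acly, which makes cytosolic acetyl-CoA (0.53 ± 0.19). None of the 4 passed without control females 6 to 9, where their values were 0.66, 0.52, 0.45 and 0.39, and the calls of Srebf1, Gpam and Acly were lost without any 1 of 17, 24 and 8 mice.

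In the cholesterol pathway the enzymes did not move together. Lss, which closes the sterol rings (1.10 ± 0.34, adjusted p = 0.017), and Cyp51 (0.79 ± 0.28) were more positive in females, whereas Idi1, which acts upstream on isoprenoids, fell in females by 1.13 on the log2 scale (difference -1.28 ± 0.29, adjusted p = 0.0012) and Scap, the sterol sensor that escorts SREBP proteins, had -0.44 ± 0.15. Sqle, the enzyme before Lss, differed by 1.12 ± 0.36 at 1 probe and by 0.83 (adjusted p = 0.17) at the other. Of these 5 genes Idi1 alone passed without control females 6 to 9, and the calls of Cyp51 and Scap were lost without any 1 of 19 and 13 mice. In fatty acid oxidation the call was Hadh, the dehydrogenase of the third step (-0.85 ± 0.18, adjusted p = 5.1e-04).

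Genes of glucose and amino acid metabolism were called in both directions. Pck1, which commits carbon to gluconeogenesis (-1.32 ± 0.38), and Slc37a4, the glucose-6-phosphate transporter (-1.09 ± 0.24), fell in females, while Foxo1, the insulin-regulated transcription factor (0.43 ± 0.10), and Gys2, the liver glycogen synthase (0.54 ± 0.17), rose in females. Of these 4 calls that of Slc37a4 alone passed without control females 6 to 9 (-0.79, adjusted p = 0.0499). Of 40 genes of the urea cycle and amino acid catabolism 6 were more positive in males, among them Slc25a13, the aspartate and glutamate carrier of mitochondria (-0.99 ± 0.16, adjusted p = 2.4e-05), Tdo2, which degrades tryptophan (-1.19 ± 0.30), and the lysine-degrading Aass (-0.96 ± 0.22). The second probe of Aass was called in the opposite direction, at 0.49, and that of Slc25a13 was not called (-0.26, adjusted p = 0.21). Of the 3 more positive in females, Cbs, the first enzyme of transsulfuration (0.70 ± 0.18 and 0.56 at a second probe), and Glud1 (0.62 and 0.61) were called at 2 probes each. The calls of Tdo2, Aass and Cbs were lost without the 4 females (adjusted p = 0.087, 0.061 and 0.12).

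Secreted proteins of the liver were called in both directions. Of 44 complement, coagulation and protease inhibitor genes 8 were more positive in females and 6 in males. Serpinc1 lay between 10.93 and 12.05 in control females, 9.70 and 10.96 in Rapa females, 9.96 and 10.72 in control males and 10.15 and 11.56 in Rapa males (-1.63 ± 0.22, adjusted p = 7.6e-07). Complement factor B (Cfb, -1.11 ± 0.20) had the same direction, and its call ended with the 3 components of the probes detected on no array as covariates (-0.40, adjusted p = 0.40). C1s1, a protease of the classical complement pathway (0.74 ± 0.16, adjusted p = 6.3e-04), and F12, coagulation factor XII (0.49 ± 0.09, adjusted p = 1.1e-04), were more positive in females, and F12 had 0.27 (adjusted p = 0.051) and 0.62 (adjusted p = 7.4e-04) at its other probes. The values of C1s1 and F12 were 0.86 and 0.47 without control females 6 to 9, and both passed. The second probe of C1s1 was not called (0.31, adjusted p = 0.25). Mug1, a protease inhibitor of plasma, differed by 0.93 ± 0.32, and its call was lost without control female 1, 2 or 8 or Rapa female 5 or 9. Of 22 acute phase genes Il1rap alone was called, by its brightest probe (0.81). The call of this probe was lost without control females 6 to 9 (0.72).

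Drug metabolism and the classical sex-biased genes of the liver gave smaller shares of calls than all genes. Of 25 P450 enzymes and their regulators Cyp2c29 alone was called. Of 20 male-high sex-biased genes Mup20 and Hsd3b2 were called (10.0%), although the median difference of the list was 0.48 and 14 of the 20 lay above 0. Hsd3b2, with -0.46 ± 0.15, had 3 other probes with differences of 0.43, 0.26 and 0.09. Neither of these 2 calls passed without the 4 females. Of 15 female-high genes Sult1e1, the estrogen sulfotransferase, alone was called. Sult1e1 ranged from 6.98 to 10.97 in control females and from 6.87 to 8.31 in Rapa females, and in males it was detected on 1 of 22 arrays, so the male ratio compares background levels and the difference of -1.41 ± 0.36 rests on the females.

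For redox genes, 5 of 30 measured genes of the NRF2 pathway were more positive in males and 2 in females, with a median of -0.28 against 0.02 for all genes. Txn1, thioredoxin, had the lowest adjusted p (-1.34 ± 0.20, adjusted p = 3.1e-06, and -0.13 at its second probe, not called), followed by Prdx1 (-0.35 ± 0.09, and -0.76 at its second probe, also called), Keap1, the inhibitor of NRF2 (-0.44 ± 0.11, and -0.22, 0.17 and 0.06 at its other probes, none called), and Gstm3 (-0.94 ± 0.27). Gstm3 was detected on few female arrays, 3 with the control diet and 1 with Rapa. The transporter gene Abcc3 had the opposite direction (0.88 ± 0.29). Of the 7 calls of this list, Txn1 alone passed without the 4 females in the male direction, and none in the female direction. Txnrd1, the selenoprotein that reduces thioredoxin, lay between 8.14 and 8.88 in control females and between 7.46 and 7.92 in Rapa females, without overlap, against 7.55 to 8.02 and 7.77 to 8.46 in males (-1.05 ± 0.11, adjusted p = 3.1e-09). Among 22 genes of selenium handling, Selenok (-1.10 ± 0.17) and Msrb1 (-0.70 ± 0.15, and 0.18 at its second probe) were also more positive in males, and Sephs2, which makes the selenium donor (0.65 ± 0.19), and Sephs1 were more positive in females. The call of Sephs2 was lost without the 4 females (adjusted p = 0.076).

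Of 15 genes of the circadian clock Per2 alone was called (0.76 ± 0.25 and 0.75 at a second probe, both called), and its call was lost without control male 2 or control female 6 and without control females 6 to 9. According to the methods all mice were killed in the same hours of the morning, unfasted. Of 30 interferon-induced genes 4 were more positive in males, Ifi47 (-0.99 ± 0.22), Bst2 (-0.75 ± 0.22), the immunoproteasome subunit Psmb9 (-0.74 ± 0.23) and Irgm1 (-0.68 ± 0.14, with 0.16 at its second probe). The calls of Bst2 and Psmb9 were lost without the 4 females. Of 15 proliferation genes Pcna alone was called (-1.04 ± 0.16, adjusted p = 4.1e-06). Pcna was detected on all control female arrays and on 2 of 11 Rapa female arrays.

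Markers of other cell types in the liver gave few calls, and their part in the differences above was not tested. The neutrophil markers had a median difference of -0.13, and of 0.25 without control females 6 to 9. None of 12 measured neutrophil markers was called, but their summed level spread widely, with log2 sums of 11.70 to 17.01 in control females, 11.73 to 16.43 in Rapa females, 11.27 to 15.65 in control males and 11.98 to 14.85 in Rapa males. Lcn2, which neutrophils store and hepatocytes make in inflammation, ranged from 9.78 to 15.47 in control females, 10.45 to 15.68 in Rapa females, 8.66 to 15.45 in control males and 10.63 to 14.38 in Rapa males, and its difference was -0.89 ± 1.10. With a neutrophil score as covariate 2908 transcripts passed. All 8 measured genes of MHC class II had differences below 0 with a median of -0.65 (-0.39 without control females 6 to 9), of which H2-Aa was called (-1.88 ± 0.46, adjusted p = 0.0026). H2-Aa ranged from 10.60 to 13.94 in control females and from 9.72 to 11.09 in Rapa females, and the log2 sum of the list was 12.82 to 15.85 and 12.46 to 13.72 in these groups, against 12.25 to 14.29 and 12.24 to 15.28 in control and Rapa males.

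Among macrophage markers 14 of 15 had differences below 0 (median -0.32, and -0.17 without control females 6 to 9), and Adgre1, which encodes the F4/80 antigen, was called (-1.001 ± 0.29), whereas its other probes differed by -0.50 and -0.05 and were not. The log2 sum of this list was 14.34 to 15.76 in control females, 14.43 to 16.23 in Rapa females, 13.73 to 15.41 in control males and 14.06 to 16.18 in Rapa males. Lyz2, the lysozyme of macrophages and neutrophils, differed by -1.82 ± 0.39 (adjusted p = 6.8e-04) at 1 probe and by -0.20 at the other. All 10 measured T and NK cell markers lay below 0 (median -0.26, and -0.11 without the 4 females), of which Prf1, perforin, was called (-1.01 ± 0.18, adjusted p = 8.4e-05). Of 16 stellate cell markers Col3a1 (-0.90 ± 0.27), of 17 endothelial markers Tek (0.37 ± 0.11) and Cdh5 (0.29 ± 0.11), and of 9 B and plasma cell markers Sdc1 (0.64 ± 0.18), which hepatocytes also express, were called, and of 5 bile duct markers none. Sdc1 was the only 1 of the 9 B and plasma cell markers above 0. Their median was -0.24, and 0.28 without the 4 females. The calls of H2-Aa, Lyz2 and Prf1 held without control females 6 to 9, and those of Adgre1, Col3a1, Tek, Cdh5 and Sdc1 did not.

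The 3 components of the probes detected on no array differed between the groups, so adding them can also take up part of a group difference. With them as covariates, 72 of the 146 calls named by the fixed rule passed and 74 did not. Among those that passed were Ndufb4, Ndufb9, Atp5e, Atp5a1, Cox7b and Uqcrb of the respiratory chain, Pmpcb, Serpinc1, Txn1, Txnrd1, Selenop, Rer1, Scp2, Herpud1 and Cish. Of the ER, translation and lipid genes, the calls of Hspa5, Creld2, Spcs2, Atp2a2, Dhx29, Eif3k, Nars, Tars, Wars2, Rpl30, Rpl35a, Rps9, Srebf1, Gpam, Acly, Agpat2, Lss, Cyp51, Sqle, Idi1, Scap and Pltp ended. Of the signaling, metabolic, redox and secreted genes, those of Mtor, Atg13, Foxo1, Gys2, Pck1, Slc37a4, Tdo2, Aass, Ctss, Keap1, Prdx1, Msrb1, Gstm3, Sephs2, Sult1e1, Hsd3b2, Mup20, Per2, Il1rap, Cfb and Serpina1a ended. Of the genes of chaperones, protein turnover and the nucleus, those of Hspa9, Hspe1, Dnaja2, Usp7, Usp9x, Cul4a, Psmc3, Psme3, Hnrnpu, Srsf4, Luc7l2, Ranbp2, Cse1l, H3f3b, Terf2, Tdrkh, Zfp598, Srprb and Ppp6r1 ended, as did those of the immune, interferon, stromal and endothelial genes H2-Aa, Lyz2, Adgre1, Ifi47, Irgm1, Psmb9, Col3a1, Sdc1, Tek and Cdh5.

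**Figure D5:**
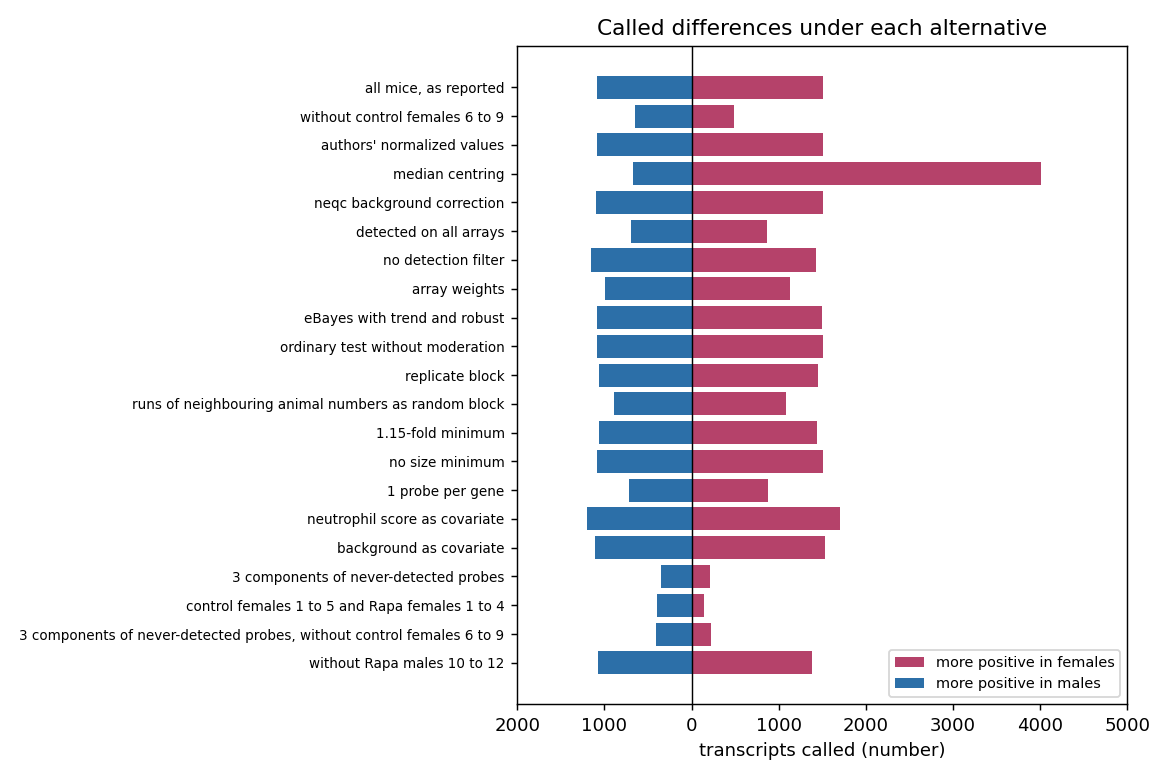
The number of transcripts whose Rapa effect differed between the sexes under each way of processing the data, more positive in females (right) or in males (left). The count stays between 1966 and 2908 for most alternatives, falls to 1136 without control females 6 to 9 and to between 542 and 633 with the components of never-detected probes or the small female subset, and rises to 4675 with median centring. It is 1562 with only the probes detected on all arrays and 1598 with 1 probe per gene.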

How the data were processed

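Liver RNA of 42 mice was hybridized to 1 array each. The authors extracted mean bead intensities with Genome Studios and deposited them without normalization, with a detection score per probe, a fraction of up to 1. A second table deposited by the authors holds log2 values after quantile normalization in Matlab, used here as an alternative. No count of reads exists for arrays, so the number of mice limits the precision.

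Here the intensities were log2-transformed and quantile-normalized over 25697 probes, and 12719 with a score over 0.95 on at least 9 arrays were tested. Signals are not background-subtracted, so low levels understate changes. Group means were fitted with limma 3.58.1 (R 4.3.3, statmod 1.5.0) on all arrays, with the contrast Rapa minus control in females minus that in males. All p-values of transcripts are limma's moderated tests, 2-sided and adjusted by Benjamini-Hochberg over the tested probes. Calls needed an adjusted p under 0.05 and an absolute difference over 0.15. The fit was tested on simulated data.

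Symbols came from the platform annotation, updated through gene IDs, for 16027 probes, and each gene of a list was represented by its brightest probe. Named are the 12 largest differences and the 8 lowest adjusted p in each direction, up to 4 called genes per list (2 uncalled ones where none was called), up to 10 transcripts with opposite changes in both sexes and up to 6 of opposite sign where neither sex passed alone. Other list members, and transcripts of the opposite group, were named after their values were seen. The contrast, members and lists were chosen with earlier results of these data known. Alternatives changed the normalization, the background correction, the detection filter, the test, the blocks and covariates, the size minimum and the mice entered. Labels do not say whether mice shared cages or days.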

Additional observations from a re-analysis of the deposited data

Results flagged for a closer look

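The comparison itself is one between the sexes, and it set apart 2593 transcripts, 1511 with the effect more positive in females and 1082 with the effect more positive in males, of which 29 changed in opposite directions in both sexes.

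Probes detected on no array were outside the main comparison. Of 9720 such probes, 36 passed the same thresholds for the interaction (0.37%), 15 more positive in females and 21 more positive in males, and 41 (0.422%) when these probes were normalized among themselves.

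Single control mice lay far from the rest of their group, by Dixon's test of the gap to the nearest mouse, in 23 of 296 tests of the named transcripts in the 2 control groups, where chance alone gives about 1 in 20. Among control males the highest mouse reached 15.45 for Lcn2, 10.96 for Lss, 12.65 for F12, 8.22 for Hsp90aa1, 11.22 for Psmc3 and 10.44 for Psme3 (log2 level). The lowest control male was at 9.05 for Cyp2c29, where the next mouse was at 11.05, and at 10.21 and 10.53 for the 2 named probes of Il1rap. The lowest control male was also apart at 8.95 for Adgre1, 10.08 for Bst2, 8.10 for Gys2, 11.44 for Msrb1, 14.28 for Prdx1, 9.98 for Ptges3 and 7.33 for Terf2. Among control females the highest mouse was apart at 10.39 for Atp5e, 8.43 for Gstm3, 12.01 for H3c13, 11.82 for H3c14 and 11.68 for Mrps18c, and the lowest at 10.85 for Agpat2 and 8.00 for Ppp6r1.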

How the results depend on the processing

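The number of transcripts that responded unequally stayed within 1.5 times of 2593 with the deposited normalized values, background correction by neqc, no detection filter, array weights, the trend, ordinary and random-block tests, other size minimums and the covariates for neutrophils and background. Leaving out control females 6 to 9 gave 1136 (487 more positive in females, 649 in males, 48 opposite in both sexes). Median centring gave 4675 (4003, 672 and 594). With probes detected on all 42 arrays it was 1562 of 7825 (865, 697 and 14), and with 1 probe per gene 1598 (876 in females, 19 opposite). The 3 components of never-detected probes gave 558 (213, 345 and 0), or 633 (227, 406 and 0) without control females 6 to 9 as well, a fit chosen after seeing the data. Control females 1 to 5 with Rapa females 1 to 4 gave 542 (145, 397). The cause of these changes was not tested, beyond the fewer probes or mice entered.

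Opposite changes in both sexes numbered 152 with array weights, 1 with runs of adjoining animal numbers as a random effect, 13 without Rapa males 10 to 12 (2450 calls in all, also chosen after seeing the data) and 1 with background as covariate. With the replicate number as a block, 2516 transcripts passed, 17 of them opposite. The numbers did not pair the mice: over 58 same-numbered pairs the median correlation of deviations from the group means was 0.02, from -0.50 to 0.51, and 5 of 42 arrays correlated best with their own number. Leaving out single mice gave 2278 to 2800 calls (1285 to 1648 and 993 to 1175 by direction) and 10 to 39 opposite changes, the lowest without control male 2 and the highest without control male 10.

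Of 146 named calls, 134 passed without each single mouse. Over the other alternatives 2119 values of named calls stayed on their side of the threshold, 331 no longer passed and 1 changed sign, Prdx1 under median centring (0.082). Without Rapa males 10 to 12 the calls that no longer passed were Gpam, Per2, Srebf1 and both probes of Creld2. Among uncalled genes Lcn2 and Mmp9 changed sign with the 3 components (0.99 and 0.25), also without control females 6 to 9 (1.41 and 0.49). Transcripts close to background in a group, detected on few of its arrays, have only a bound there.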
